A study of Populus ussuriensis with 12 samples.

Results

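The roots described here came from in vitro plants of *Populus ussuriensis*, a poplar, that were never given osmotic stress: 3 libraries from plants overexpressing PuC3H35 and 3 from wild-type plants, together 6 of the 12 libraries of the series. They were chosen by the tissue label of each library, and the group names below are wild type on control medium (libraries 1, 2 and 3) and overexpressor on control medium (libraries 1, 2 and 5). Per the labels, plants of both genotypes were 7 days old when moved to fresh half-strength Murashige and Skoog medium and stood on it for 7 days. The other 6 libraries, from roots kept for 7 days on the same medium with 6% polyethylene glycol (PEG6000), comprise wild type (libraries 1, 2 and 3) and overexpressor (libraries 1, 3 and 4), and they entered the fit and served for comparison. The promoter of the transgene, the number of transgenic lines and whether a library number marks a line are not given in the labels.

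PuC3H35 belongs to the CCCH family of zinc finger proteins, in which cysteine and histidine residues hold a zinc ion and form a fold that binds nucleic acids. In plants, members of this family are known to act on transcripts or on promoters, and several have been tied to drought, salt and hormone responses and to the formation of cell walls. Polyethylene glycol lowers the water potential of a medium and is a common means of imposing a drought-like stress on roots. The comparison on control medium asks what the transgenic roots look like before any such stress.

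Levels are FPKM, that is reads or fragments scaled by gene length and library size, as deposited for 35907 gene identifiers per library. The files pair 0 of these identifiers with a gene name or product, so genes are called by their identifiers, PuC3H35 itself could not be looked up, nor could any root marker gene. A gene was called higher or lower when its adjusted p (Benjamini-Hochberg, limma on log2(FPKM + 1), 24976 genes that reached 1 FPKM in 3 or more of the 12 libraries) was under 0.05. Log2 changes are overexpressor minus wild type on that scale, where the added 1 shrinks the change of weakly expressed genes. The recovered depth of the 6 libraries ran from 10734208 to 12053123 reads. The design does not separate an effect of PuC3H35 from other effects of the transgenic material, and nothing in the labels says that libraries of a group came from separate plants, so each p-value speaks to the spread among libraries, and that spread may be technical.

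A broad part of the root transcriptome differed between the genotypes without stress, mostly by modest amounts. In the overexpressor 3191 genes (12.8% of those tested) were higher and 1889 (7.56%) were lower, together 20.3%. Of these 5080 genes, 4205 (82.8%) differed by less than 2-fold, and the median log2 change was 0.60 among higher and -0.59 among lower genes. Over all tested genes, changed or not, the middle 90% of log2 changes lay between -0.58 and 0.76. Which direction held more genes depended on the scaling: 62.8% of calls were higher without rescaling, 55.7% with upper-quartile scaling, 46.7% with median-ratio scaling and 44.7% with limma-voom on recovered reads. By the simpler measure of 3 libraries against 3 with no overlap, 9482 genes (38%) were apart, 6064 of them (24.3%) with the overexpressor above and 3418 (13.7%) with it below; with median-ratio scaling the shares were 18.2% and 19.1%. Without wild-type control library 2 the called counts were 1993 higher and 1154 lower. Without wild-type control library 3, 1211 genes were lower.

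Large changes were mostly rises. At least 2-fold changes numbered 592 higher and 283 lower, at least 4-fold changes 96 and 14, and at least 8-fold changes 18 and 3. Higher genes outnumbered lower ones in all 22 alternatives, by 1.31 to 2.70 times at 2-fold and by 3.6 to 9.27 times at 4-fold. The counts themselves moved with the method and with the small constant added before taking logs. Limma-voom on recovered reads changed the test together with the scaling, which was median-ratio there, and did not add 1 FPKM. It gave 578 genes at least 2-fold lower, 275 at least 4-fold higher and 61 at least 4-fold lower. With 0.1 in place of 1, 1015 genes were at least 2-fold higher, 319 at least 4-fold higher and 40 at least 4-fold lower. With 5 as the constant the at least 2-fold counts were 177 and 124 and the at least 4-fold counts 18 and 5.

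**Figure D1:**
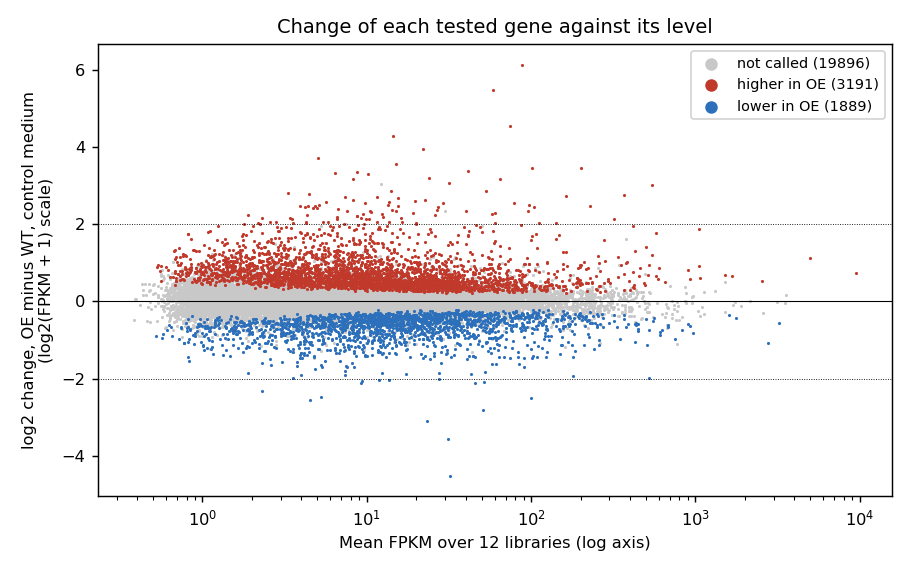
Log2 change of each tested gene on control medium (overexpressor, OE, minus wild type, WT; vertical axis, log2(FPKM + 1) scale) against its mean FPKM over 12 libraries (horizontal, log axis). Red and blue points are the 3191 higher and 1889 lower genes, grey points were not called, and dotted lines mark 4-fold changes; the 96 called genes above the upper line outnumber the 14 below the lower one.

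The 2 largest rises were in genes that wild-type roots hardly expressed on control medium. Potri.013G100700.v3.1 reached only 0.264, 0.278 and 0.582 FPKM in wild-type libraries 1, 2 and 3, which were 4, 4 and 9 reads, but 96.6, 137 and 64.5 FPKM in overexpressor libraries 1, 2 and 5. The groups did not overlap, and every overexpressor library was far above every wild-type library. The mean rose from 0.374 ± 0.180 to 99.5 ± 36.6 FPKM (SD, n = 3 each), a log2 change of 6.13 (SE 0.404, limma adjusted p 1.12e-05). Its neighbour in identifier order, Potri.013G100800.v3.1, went from 0.330, 0.208 and 1.16 FPKM to 65.3, 100.4 and 44.8 FPKM (log2 change 5.48, SE 0.417, limma adjusted p 2.23e-05). In both genes overexpressor library 2 was highest and library 5 lowest. Both have a recovered gene length of 1283 bases, so reads may have been divided between near-identical copies, and the level of each alone is uncertain.

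The 2 largest falls were in genes that wild-type roots expressed strongly. Potri.014G149700.v3.1 had 103, 161 and 96.0 FPKM in the wild-type libraries and 6.77, 5.86 and 1.59 FPKM in the overexpressor libraries. No libraries overlapped, and the mean fell from 120 ± 35.5 to 4.74 ± 2.77 FPKM (SD, n = 3 each; log2 change -4.51, SE 0.366, limma adjusted p 3.3e-05). Potri.001G176200.v3.1 had 100.2, 167 and 63.0 FPKM in wild type and 9.66, 7.83 and 5.95 FPKM in the overexpressor. Here too the groups were apart, with wild-type library 2 the highest of the 6, and the log2 change was -3.57 (SE 0.438, limma adjusted p 3.69e-04).

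On PEG, the overexpressor was above wild type in 9.19% of tested genes and below it in 5.3% (limma, adjusted p under 0.05), and none of these 4 genes was among them. The PEG libraries of Potri.013G100700.v3.1 gave 128, 164 and 115 FPKM for wild type and 142, 167 and 44.9 FPKM for the overexpressor, and the genotype difference there was -0.39 (SE 0.404, limma adjusted p 0.576). Potri.014G149700.v3.1 had 1.21, 3.16 and 2.55 FPKM in wild type and 0.735, 0.534 and 0.759 FPKM in the overexpressor on PEG, a difference of -0.94 (SE 0.366, limma adjusted p 0.112) with the overexpressor libraries all below those of wild type. The genotype differences of the other two on PEG were -0.08 (SE 0.417, adjusted p 0.928) for Potri.013G100800.v3.1 and -0.19 (SE 0.438, adjusted p 0.816) for Potri.001G176200.v3.1. The change of the genotype difference between the media was itself called in each of the 4 genes (limma, 7.5% of tested genes had a called interaction). In the order in which the genes were introduced, the interactions were -6.52, -5.56, 3.58 and 3.38, with limma adjusted p of 1.54e-04, 3.93e-04, 0.00191 and 0.00742. The 4 genes were picked for a large difference on control medium, which enters the interaction, so these p-values are not independent of that choice. The interaction of Potri.014G149700.v3.1 was 3.20 with an adjusted p of 0.0574 in limma-voom on recovered reads, and that of Potri.001G176200.v3.1 was 2.84 with an adjusted p of 0.0862 with the replicate number as a block.

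Potri.001G266700.v3.1 had the smallest p of all genes on control medium. It is outside the rule for naming genes and was singled out after its values were seen. Its level was 34.8, 36.0 and 35.6 FPKM in the wild-type libraries and 496, 299 and 428 FPKM in overexpressor libraries 1, 2 and 5, a log2 change of 3.46 (SE 0.143, limma adjusted p 3.49e-07). The wild-type libraries lay within 2 FPKM of each other, while the overexpressor libraries ranged widely and were all far above them. On PEG its level was 28.5, 28 and 27.8 FPKM in wild-type libraries and 317, 321 and 353 FPKM in the overexpressor, a log2 difference of 3.51 (SE 0.143, adjusted p 2.94e-07). Its interaction of 0.05 (SE 0.202) had an adjusted p of 0.923. No source used here says whether this identifier is the transgene's counterpart.

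**Figure D2:**
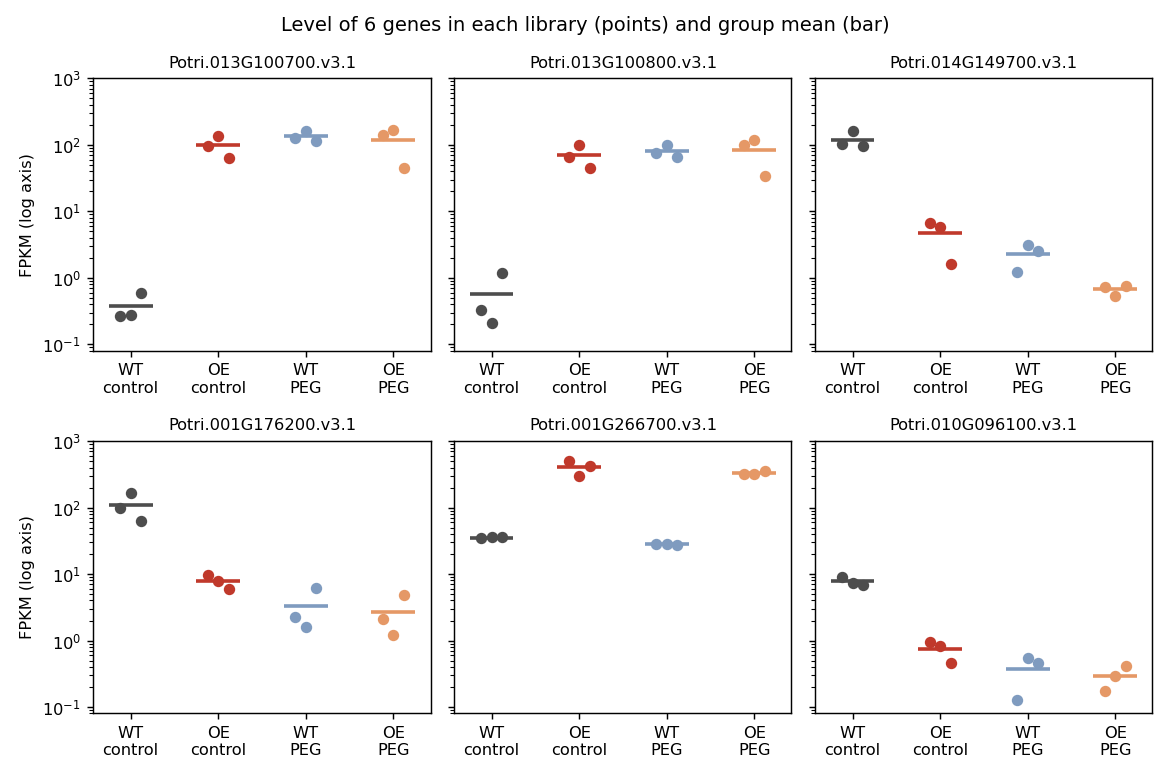
FPKM (log axis) of 6 genes in each library (points) of wild type (WT) and the overexpressor (OE) on control medium and on PEG, with group means as bars, n = 3 each. On control medium the genotypes are apart in all 6 genes; on PEG the libraries of the genotypes stay apart in Potri.001G266700.v3.1, at 317 to 353 FPKM in the overexpressor and 27.8 to 28.5 in wild type, and in Potri.014G149700.v3.1, at 0.534 to 0.759 and 1.21 to 3.16.

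Few genes went from near silence to clear expression or the reverse. With under 1 FPKM in all 3 libraries of one genotype and at least 5 FPKM in all 3 of the other as the definition, 6 genes were on in the overexpressor and off in wild type, and 1 was off in the overexpressor. In the 6 genes that were on, levels in single overexpressor libraries ran from 5.70 to 137 FPKM. In wild type on PEG the median over the 6 genes was 13.1, 10.7 and 12.6 FPKM in libraries 1, 2 and 3. In wild type on control medium it was 0.0730, 0.224 and 0.404 FPKM in the same order. A median does not give the level of each of the 6 genes. The 1 gene that was off, Potri.010G096100.v3.1, is named for that reason after its values were seen. It had 9.07, 7.41 and 6.79 FPKM in wild type and 0.937, 0.838 and 0.460 FPKM in the overexpressor without stress (log2 change -2.33, SE 0.172, limma adjusted p 2.17e-05), and it was under 1 FPKM in all 6 libraries on PEG.

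Beyond single genes, overexpressor roots had more genes at detectable levels. Between 23593 and 24055 genes reached 1 FPKM in the overexpressor libraries on control medium and between 23073 and 23303 in the wild-type libraries, a mean difference of 660 genes with no overlap. With 3 libraries against 3 the exact two-sided permutation p was 0.1, the smallest this design allows. On PEG the ranges were 23500 to 23735 and 23141 to 23385, a difference of 405 genes, also without overlap (exact permutation p 0.1, again the smallest possible). Permuting genotype within each medium over all 12 libraries gave an exact two-sided p of 0.005, the smallest of the 400 arrangements. The count of detected genes was added after the data were seen, so this p does not come from a planned test. The excess over both media was 532 genes without rescaling, 286 with median-ratio scaling and 464 when counted as genes with at least 10 recovered reads. Each had the same smallest possible p, which therefore does not show how the excess moved. With median-ratio scaling the difference was 410 genes on control medium and 162 on PEG. The PEG ranges were then 23527 to 23649 in the overexpressor and 23392 to 23512 in wild type. Bulk libraries cannot tell more transcript per cell from more cells that express a gene.

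The 6 libraries fell apart by genotype. Wild-type libraries differed from each other by a median of 0.166 to 0.229 on the log2 scale over genes, overexpressor libraries by 0.164 to 0.200, and pairs across genotypes by 0.245 to 0.333. Between 4.84% and 8.74% of genes were at least 2-fold apart in pairs across genotypes, against 0.969% to 2.83% within wild type and 1.49% to 2.63% within the overexpressor. The first principal component of these 6 libraries held 55.7% of the variance and placed the overexpressor libraries at 30.7, 40.6 and 36.7 and the wild-type libraries at -29.8, -45.8 and -32.5, so that wild-type library 2 lay farthest from the overexpressor. The spread between replicates was similar in size, with a median SD over genes of 0.164 in wild type and 0.156 in the overexpressor.

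**Figure D3:**
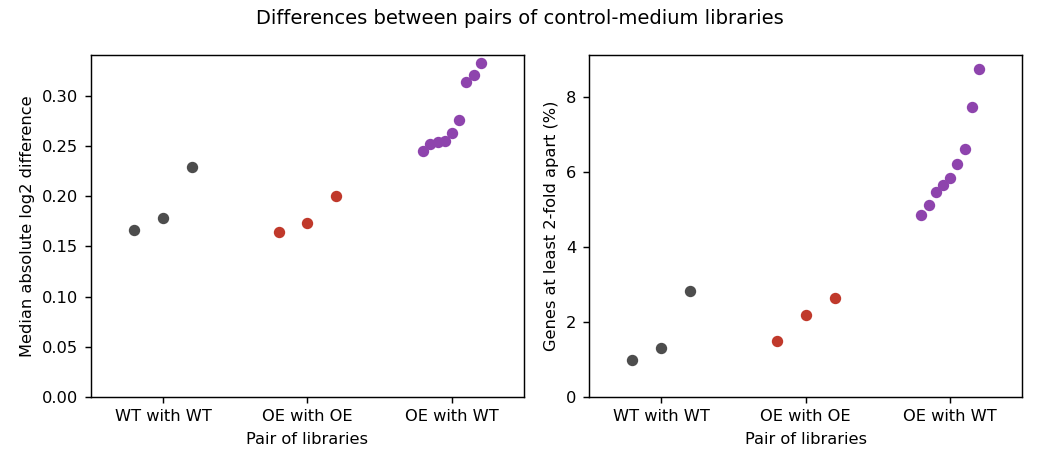
Each point is a pair of control-medium libraries: 3 pairs of wild type (WT), 3 pairs of the overexpressor (OE) and 9 pairs across genotypes. The left panel gives the median absolute log2 difference over tested genes and the right panel the percent of genes at least 2-fold apart; all 9 pairs across genotypes lie above all pairs within a genotype in both panels.

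The overexpressor libraries did not carry the large changes equally. Among the 96 genes at least 4-fold higher, the highest of the 3 overexpressor libraries was library 2 in 56, library 5 in 30 and library 1 in 10. Their median log2 differences from the wild-type mean were 2.78, 2.5 and 2.05 in the same order. Among the 283 genes at least 2-fold lower, the lowest library was library 5 in 129, library 2 in 100 and library 1 in 54. These counts are on the FPKM as deposited, and no such counts over all tested genes are given beside them. Over all tested genes, library 2 also had the highest median level of the 3, 7.98 FPKM. Library 5 had the lowest, 7.63 FPKM, and library 1 had 7.80 FPKM. A part of such library-wide offsets in the counts was not tested. The 96 and 283 genes were chosen on the same libraries, so a library left out of the choice was looked at as well. Of the genes called at least 2-fold higher without a given control-medium library, 96.6% to 99.8% lay on the same side of the other genotype's mean in the library left out, with median log2 differences of 1.14 to 1.31. For at least 2-fold lower genes the range was 97.9% to 100% of genes, with medians from -1.24 to -0.89. The other 5 control-medium libraries did take part in that choice, among them all those of the other genotype's mean. A high share on the same side was therefore favoured by the choice itself.

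How often a gene was called depended on its level. Of the 4099 tested genes with a mean under 2 FPKM over the 12 libraries, 8.71% were higher and 3.66% lower in the overexpressor, and of the 1047 genes at 100 FPKM or more, 15.1% were higher and 15.6% lower. Higher genes thus outnumbered lower ones among weakly expressed genes and not among the most abundant. With median-ratio scaling the shares were 7.34% higher and 4.27% lower under 2 FPKM, and 10.6% and 21.1% at 100 FPKM or more, so the order among weakly expressed genes was kept and lower genes led from 5 FPKM upwards. Among the 100 most abundant genes of these roots, which took 17.3% to 18.97% of the summed FPKM, 18 were higher and 22 lower, 3 and 4 of them at least 2-fold.

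**Figure D4:**
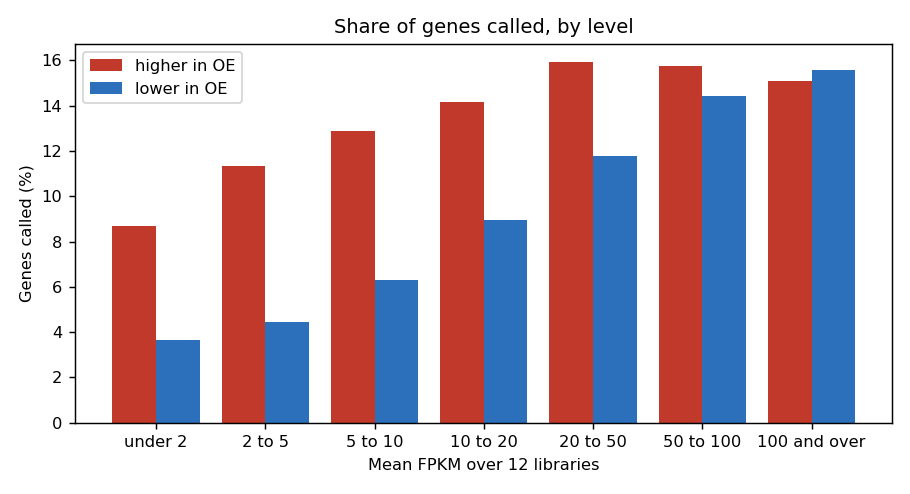
Percent of tested genes called higher (red) or lower (blue) in the overexpressor (OE) on control medium, in classes of mean FPKM over 12 libraries, on the FPKM as deposited. Higher calls exceed lower ones in every class under 100 FPKM, and lower calls rise from 3.66% to 15.6% across the classes; with median-ratio scaling lower calls lead from 5 FPKM upwards.

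Genes with large changes had a shorter median length, and their median levels in the overexpressor lay near those of wild-type roots on PEG; both are descriptions without a test. The median recovered gene length was 1251 bases among the 96 genes at least 4-fold higher, 1344 among 496 genes 2 to 4-fold higher and 1303 among 269 genes 2 to 4-fold lower, against 1779 bases over all tested genes. The part of gene length in these calls was not tested. The median level of the 96 genes was 1.21, 1.23 and 1.74 FPKM in wild-type control libraries 1, 2 and 3 and 10.5, 18.5 and 13.6 FPKM in overexpressor control libraries 1, 2 and 5. On PEG it was 11.3, 11.4 and 11.4 FPKM in wild type and 15.05, 11.96 and 14.4 FPKM in the overexpressor. The PEG libraries entered the definition of these size classes through the filter on level and the shared estimate of the spread with its trend on mean level. Among the 269 genes that were lower by 2 to 4-fold, medians were 17.3, 20.0 and 17.6 FPKM in wild-type controls, 7.28, 6.94 and 6.68 FPKM in overexpressor controls, 6.06, 7.34 and 6.94 FPKM in PEG-treated wild type, and 6.15, 6.64 and 7.33 FPKM in PEG-treated overexpressor roots. In the medians of both classes, wild-type roots on control medium stood apart from the 3 other groups. The gap to the overexpressor on control medium was set by the choice of the genes. Their wild-type control levels are extreme in part by that choice, which also favours a gap to both groups on PEG. These medians therefore do not show that overexpressor roots without stress resembled wild-type roots on PEG.

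The genotype difference on PEG was read in the same classes, as a description without a test. These libraries are separate from those on control medium. Among the 2599 genes that were higher by less than 2-fold on control medium, 2138 (82.3%) had a log2 difference above 0 on PEG, with a median of 0.24. Among the 496 genes 2 to 4-fold higher, 333 (67.1%) were above 0, with a median of 0.28, and among the 96 genes at least 4-fold higher 51 (53.1%) were above 0, with a median of 0.23 and quartiles of -0.46 and 0.89. Over all tested genes 61.2% were above 0 and the median was 0.08. This background is for the FPKM as deposited and is not given for the alternatives below. It can move with the scaling: on control medium the median over all tested genes was 0.08 without rescaling and 0.004 with median-ratio scaling. The shares under other settings are therefore not to be read against 61.2%. Of the 1606 genes lower by less than 2-fold on control medium, 36.2% were above 0 on PEG (median -0.10), and of the 269 genes 2 to 4-fold lower 47.6% (median -0.02). In the small class of 14 genes at least 4-fold lower, 11 were below 0 on PEG as well and 3 (21.4%) above it, with a median of -0.27. Across the alternatives the share above 0 ran from 75.5% to 84.8% in the class higher by less than 2-fold and from 44.4% to 63.9% in the class at least 4-fold higher, and the median of the latter ran from -0.12 to 0.34. For lower genes it ran from 23.9%, with limma-voom, to 39.4% in the class under 2-fold and from 36.1% to 50.8% in the class of 2 to 4-fold. In the class at least 4-fold lower it ran from 7.69%, without wild-type control library 2, to 42.9%, without wild-type PEG library 3; it was 35.7% without overexpressor PEG library 1 or 3 and 14.3% without wild-type PEG library 1 or overexpressor PEG library 4.

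**Figure D5:**
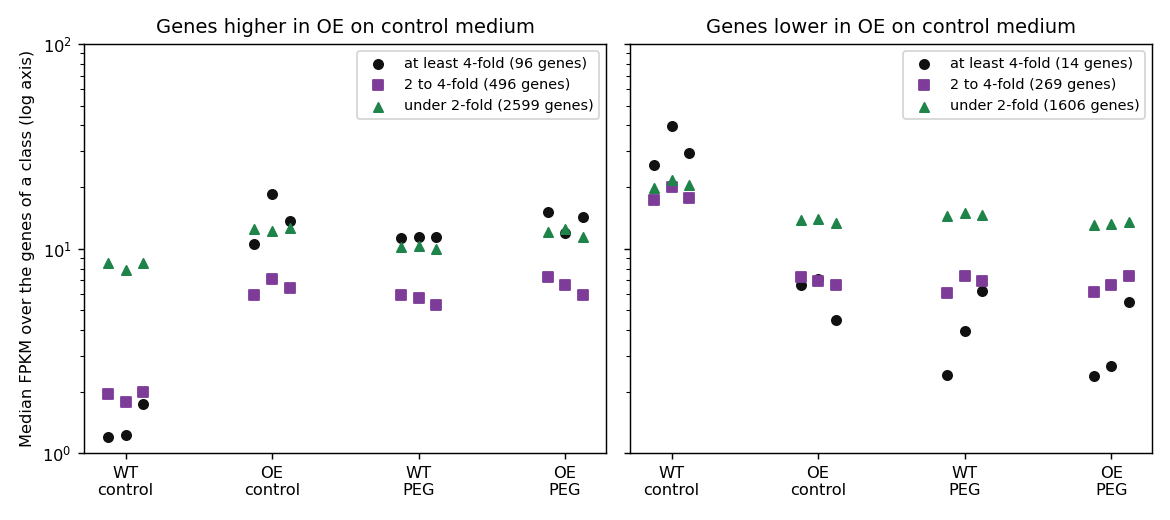
Median FPKM (log axis) over the genes of each size class of the change on control medium, in every library of wild type (WT) and the overexpressor (OE) on control medium and PEG; the left panel holds genes higher and the right panel genes lower in the overexpressor. In the classes at least 4-fold and 2 to 4-fold, the medians of the 3 wild-type control libraries stand apart from those of the 9 other libraries. Medians of the 9 lie near each other, except in the class of 14 genes at least 4-fold lower, where they scatter from 2.39 to 7.15 FPKM. The classes were chosen on the control-medium libraries, which set the gap between the genotypes there. A median does not give the level of each gene.

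Genes changed at least 2-fold had a neighbour of their own set in identifier order more often than tested genes at large, though most had none. Of the 592 genes at least 2-fold higher, 78 (13.2%) had a neighbouring tested identifier in the same set, while 4.64% of all tested genes had a neighbour in it. In the set of 283 genes that were lower by 2-fold or more, 31 (10.95%) had a neighbour in their set, against 2.23% of all tested genes. The gene pair with the largest rises described above is one of 42 such pairs of higher genes, and 2 of these 42 have equal recovered lengths. In the lower set 0 of 17 pairs had equal lengths. With 5 as the added constant the sets shrank to 177 and 124 genes, of which 7.91% and 5.65% had a neighbour in their set, against 1.40% and 0.981% of all tested genes. Over called genes of any size of change, with 1 as the constant, the shares lay closer together. Of the 3191 higher genes 28.9% had a neighbour in their set, against 23.9% of all tested genes. For the 1889 lower genes the shares were 19.3% and 14.5%. Identifier order is used here in place of positions, since no genome coordinates were used.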

How the data were processed

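RNA from roots was extracted by a CTAB method and made into Illumina TruSeq libraries, per the labels' protocols. Each deposited file holds 1 value per gene, taken as FPKM made by the authors: the header names no unit, but once scaled for depth, 100% of 370737 values above 0 came out as whole reads within 0.01, and 99.99% of 23578 gene lengths were whole within 0.002 bases. Reads and fragments could not be told apart. The submitters' processing notes list Bowtie2 2.2.3 and HISAT2 2.1.0 but no roles for them. No source used here gives a counting tool, annotation or build. The main test was limma 3.58.1 under R 4.3.3 with a trend on mean level, run on log2(FPKM + 1), 1 fit of 4 group means to 12 libraries with 8 residual degrees of freedom, two-sided, with no further scaling. SE is limma's moderated one. Replicate pairs differed by more than sampling noise (chi-square per gene 3.10 to 16.1).

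Named genes are the 2 largest rises and 2 largest falls among called genes whose genotypes did not overlap and whose higher group averaged 5 FPKM or more. The comparisons and gene lists were chosen with earlier results of these data known, and 67 lists by product description were not run because the identifiers carry no description. The 22 alternatives changed the libraries in the fit, added constant, filter, scaling, test, trend, block, or left out each of 12 libraries. Detected genes, 4-fold counts, size classes on PEG, neighbours and the rescaled counts of silent and non-overlapping genes were added after seeing the data.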

Additional observations from a re-analysis of the deposited data

Results flagged for a closer look

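The genotype difference was not the same on the 2 media in 5 of the genes described, by the limma interaction test, with log2 interactions of -6.52 in Potri.013G100700.v3.1 (adjusted p 1.54e-04), -5.56 in Potri.013G100800.v3.1 (adjusted p 3.93e-04), 3.58 in Potri.014G149700.v3.1 (adjusted p 0.00191), 3.38 in Potri.001G176200.v3.1 (adjusted p 0.00742) and 2.25 in Potri.010G096100.v3.1 (adjusted p 4.28e-04). Over the alternatives the adjusted p reached 0.00714, 0.0105, 0.0574, 0.0862 and 0.0208 in the same order. The first 4 were picked for a large difference on control medium, which enters the interaction. The fifth was picked for at least 5 FPKM in every wild-type and under 1 FPKM in every overexpressor library on control medium. Its choice therefore also set a difference that enters its interaction. Groups of 3 libraries are too small to test a single library as an outlier.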

How the results depend on the processing

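The log2 change on control medium of each of the 6 genes described kept its direction and stayed under an adjusted p of 0.05 in all 22 alternatives. In place of 5080 genes, a fit of the 6 control-medium libraries alone called 3325 (2054 higher). With the replicate number as a block (replicate block) 3138 were called, 1907 higher and 1231 lower, of which 2768 were among the 5080; on PEG the block gave 1278 higher genes and for the interaction 848. The numbers were not taken to pair libraries: only 1 and 2 are shared on control medium, no label gives them a meaning, and same-numbered libraries deviated with correlations of -0.079 and -0.233. Limma-voom on recovered reads gave 578 genes at least 2-fold lower, 275 at least 4-fold higher and 61 at least 4-fold lower, and 1331 higher on PEG, where median-ratio scaling gave 1449, in place of 2296. Lower genes on PEG numbered 1324 and interaction genes 1873. Adding 0.1 before logs gave 1015 genes at least 2-fold higher and 319 and 40 at least 4-fold higher and lower, and adding 5 gave 177 and 124 at 2-fold and 18 and 5 at 4-fold. Leaving out each library in turn gave 3147 to 5719 genes on control medium, with 1993 to 3589 higher and 1154 to 2130 lower, 573 to 622 and 218 to 377 at 2-fold, and 80 to 123 and 11 to 20 at 4-fold. The same gave 1034 to 2399 higher and 712 to 1391 lower on PEG and 967 to 2076 interaction genes. On PEG the lowest counts were without wild-type library 3 (1034 and 712), without wild-type library 1 (1062 and 717) and without overexpressor library 3 (1285 and 872). Interaction genes numbered 967 without wild-type PEG library 1, 1136 without wild-type PEG library 3 and 1240 without wild-type control library 3. The cause of these shifts was not tested. Wild-type control levels of 3 to 18 reads limit the precision of the 2 largest folds.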

Other observations

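The changes were spread over the whole set of identifiers. In the 19 numbered blocks of identifiers (Potri.001G to Potri.019G), 10.6% to 14.9% of tested genes were higher and 6.05% to 9.14% lower in the overexpressor on control medium, and the median log2 change of a block lay between 0.063 and 0.107. Among the 603 tested genes with identifiers beginning Potri.T, 11.3% were higher and 4.31% lower. In 4807 overlapping windows of 20 tested genes in identifier order, the median log2 change of a window lay between -0.28 and 0.43. In single overexpressor libraries, measured against the wild-type mean, it lay between -0.41 and 0.51. None of these windows, which began every 5 genes, thus had a median 2-fold higher or lower in any of the 3 libraries.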
